A study of Mus musculus with 6 samples.

Results

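The genes described are 8 CC chemokines, Ccl2, Ccl3, Ccl4, Ccl5, Ccl7, Ccl8, Ccl11 and Ccl20, and 1 chemokine receptor, Ccr2. They were chosen by name from a gene family, with earlier results of these data known, and make up 9 of the 31055 gene features measured. They were followed in the fibroblast-like, macrophage-like, T-cell-like and epithelial-like cells of the mouse mammary gland. Single-cell RNA was sequenced from 6 droplet libraries of female C3(1)-Tag mice. All of these mice carry the SV40 large T antigen under the C3(1) promoter, which acts in the mammary epithelium, so every state has the transgene and there is no transgene-free control. The Prepuberty state is the whole gland at 5 weeks (2 libraries), the DCIS state is the whole gland at 14 weeks, when ductal carcinoma in situ is present (2 libraries), and the Tumor state is the palpable tumour after 18 weeks (2 libraries).

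The Tumor libraries differ from the others in more than their state. By the study's methods, tumours were dissociated with another enzyme kit than the glands, and Tumor 2 was made with a later version of the droplet chemistry, whereas the sample labels give 1 digestion and 1 chemistry for all. State and handling cannot be told apart in any contrast with Tumor. The labels do not say whether the 2 libraries of a state came from different animals, so p-values measure only the spread between libraries, which may be technical. After filtering, 21537 cells remained (2548 to 4306 per library), with a median of 6541 to 13632 unique molecular identifiers (UMIs, single counted RNA molecules) per cell, and any 2 libraries shared 9 to 39 cell barcodes. The classes were rebuilt from marker genes and hold 471 T-cell-like, 1208 macrophage-like, 6288 fibroblast-like and 7472 epithelial-like cells. The Prepuberty 1 library had 8 T-cell-like cells, fewer than the 10 required, so T-cell-like cells were tested between Tumor and DCIS only. T antigen UMIs were seen in 55.3% and 72.1% of epithelial-like cells of the Tumor libraries, and also in 29.8% and 43.6% of their fibroblast-like cells, against 0 to 0.615% of fibroblast-like cells in the other libraries.

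CC chemokines are small secreted proteins that direct the movement of white blood cells by binding receptors that are coupled to G proteins. Ccl2 and Ccl7 bind Ccr2 and draw monocytes from the blood into tissues, where these can become macrophages. Ccl8 is a related chemokine, and Ccl11 (eotaxin) attracts eosinophils through Ccr3. Ccl3, Ccl4 and Ccl5 are inflammatory chemokines that attract macrophages, T cells and natural killer cells. Ccl20 binds Ccr6 and is made by epithelia, where it attracts dendritic cells and T helper cells. In the mammary gland, macrophages recruited in part through such signals take part in duct growth and are abundant in tumours.

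Of the 9 genes, 7 lie on mouse chromosome 11 (GRCm38, GENCODE M21). Ccl2 (chr11:82035571-82037453, plus strand), Ccl7 (chr11:82045712-82047525, plus), Ccl11 (chr11:82057823-82062955, plus) and Ccl8 (chr11:82115185-82116799, plus) stand in a row. Ccl5 (chr11:83525778-83530518, minus), Ccl3 (chr11:83647844-83649355, minus) and Ccl4 (chr11:83662584-83664683, plus) lie farther along the same chromosome. Ccl20 is at chr1:83116766-83119167 (plus) and Ccr2 at chr9:124101950-124113557 (plus). Neighbouring copies of this family can share sequence, but no run of 40 bases in the transcripts of the 8 chemokines occurred in another gene of the family. Of 6754 such runs in Ccr2, 166 did, so a small part of the Ccr2 counts is uncertain.

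RefSeq promoter entries matched 4 of the 9 genes. The promoters of Ccl20 and Ccl8 are shown because the UMIs of the first were mostly epithelial-like and those of the other came mostly from macrophage-like cells in Tumor 1, unlike in the glands. Each is the 250 bases before the start of the gene on its own strand (GRCm38.p6), and the capitals mark a motif match.
Ccl20 (chr1:83116516-83116765, plus): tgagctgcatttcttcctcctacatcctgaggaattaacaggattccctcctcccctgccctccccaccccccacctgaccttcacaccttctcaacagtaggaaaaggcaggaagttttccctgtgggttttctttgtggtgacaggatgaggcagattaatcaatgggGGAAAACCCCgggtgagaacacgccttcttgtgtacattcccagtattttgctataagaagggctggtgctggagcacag
Ccl8 (chr11:82114935-82115184, plus): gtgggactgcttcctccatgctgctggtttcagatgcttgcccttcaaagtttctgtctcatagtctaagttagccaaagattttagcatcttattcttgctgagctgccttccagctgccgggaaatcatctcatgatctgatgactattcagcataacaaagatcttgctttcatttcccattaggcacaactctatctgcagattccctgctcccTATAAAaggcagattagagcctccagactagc
In the Ccl20 promoter the capitals are a match on the other strand to an NF-kB pattern (GGG, any 2 bases, then TTTCC), 80 to 71 bases before the start. That pattern occurs on either strand in 1.41% of 32851 promoters of this length. In the Ccl8 promoter the capitals are a TATAAA box 32 to 27 bases before the start, which occurs in 12.4% of promoters. The patterns TGANTCA (6.75% of promoters) and TTCNNNGAA (7.02%) were also searched on both strands and matched in none of the 4 promoters. The promoters of Ccl3 and Ccr2, which are not shown, had no match to any of the patterns.

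The classes differed in which chemokines they held. Levels are CPM, the UMIs of a gene per 1000000 UMIs of that class in that library, with TMM scaling within the class, so an order across classes is a description. Over the libraries, median Ccl2 was 11358 CPM in fibroblast-like, 1142 in macrophage-like, 80.7 in epithelial-like and 68.2 in T-cell-like cells. Ccl7 followed the same order, with 4079, 833, 31.4 and 3.19 CPM. Among these 4 classes Ccl11 was highest in fibroblast-like cells, at a median of 1168 CPM against 6.45 in macrophage-like cells. Ccl3 (1178 CPM) and Ccl4 (3400 CPM) were highest in macrophage-like cells, with 19.6 and 39.5 CPM in T-cell-like cells, the next class. The median of Ccl5 ran from 16885 CPM in macrophage-like through 2028 in T-cell-like and 187 in epithelial-like to 100 CPM in fibroblast-like cells. Ccl20 stood at 72.2 CPM in epithelial-like and 1.82 in macrophage-like cells, and Ccr2 at 249 CPM in T-cell-like and 11.01 in macrophage-like cells. Ccl8 had no clear leader: its medians of 803 CPM in macrophage-like and 505 CPM in fibroblast-like cells came from ranges that overlapped.

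**Figure D1:**
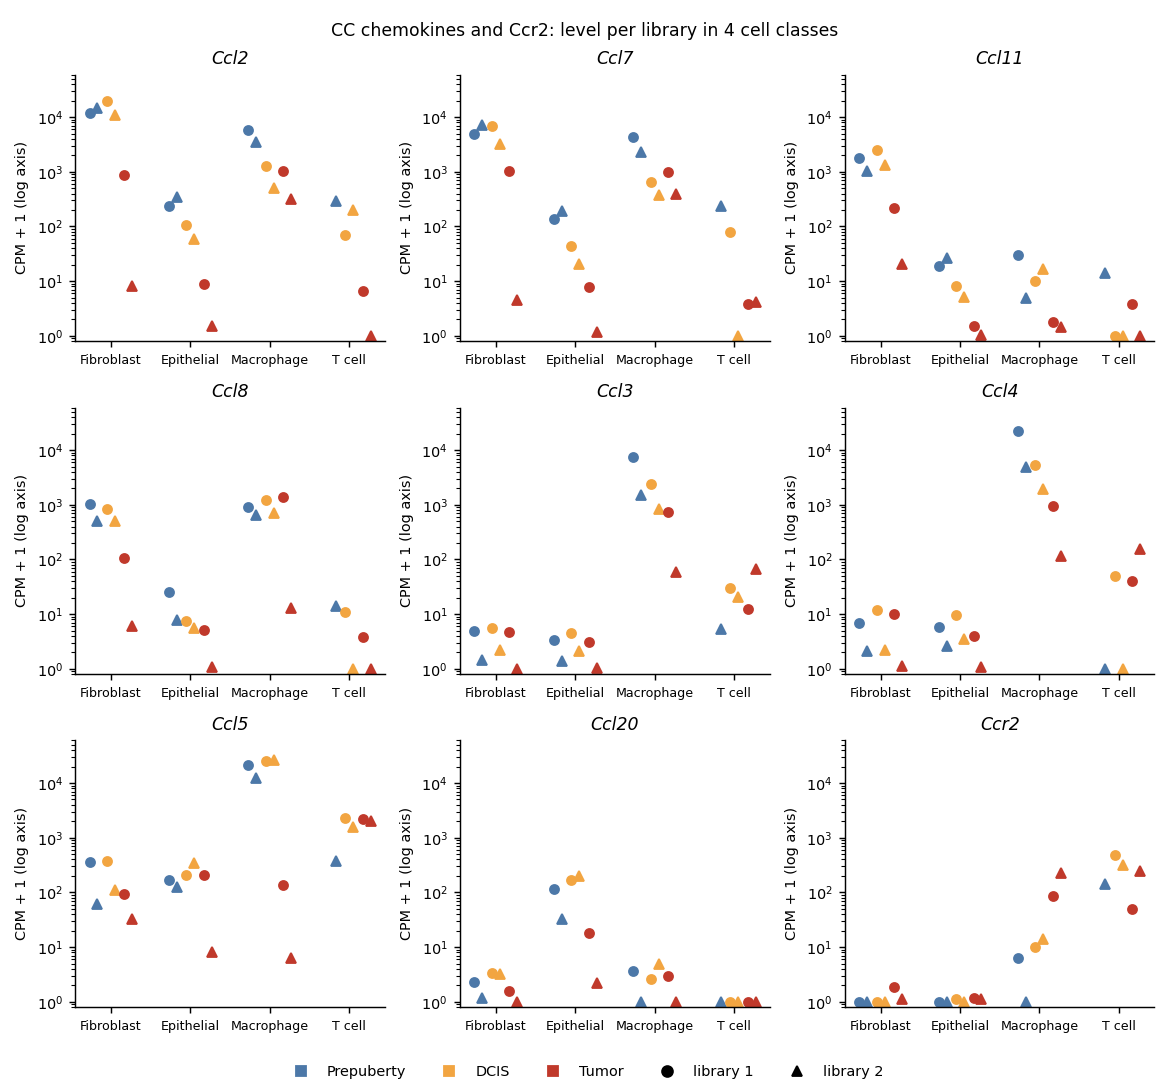
Level of each gene (1 panel per gene; CPM plus 1, log axis) in the 4 cell classes on the horizontal axis; colour is the state, circles are library 1 and triangles library 2 of that state, and T-cell-like cells have no Prepuberty 1 point. Ccl2, Ccl7 and Ccl11 sit highest in fibroblast-like cells of the Prepuberty and DCIS libraries, Ccl5 in macrophage-like cells of the same libraries, and Ccl20 in epithelial-like cells.

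The order was not the same in every state. Ccl2 in fibroblast-like cells was above that in macrophage-like cells in all 4 Prepuberty and DCIS libraries, and below it in both Tumor libraries (860.3 against 1019 CPM in Tumor 1 and 7.14 against 317 CPM in Tumor 2). Ccl5 in macrophage-like cells was above that in T-cell-like cells in the Prepuberty and DCIS libraries with both classes, and below it in both Tumor libraries. Ccr2 in T-cell-like cells was above that in macrophage-like cells in Prepuberty 2 and both DCIS libraries, whereas the Tumor values of the classes overlapped.

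The share of a gene's UMIs that each class gave, which depends on its level and on the number of cells, also differed between libraries. Fibroblast-like cells gave 88.4 to 93.3% of all Ccl2 UMIs in the Prepuberty and DCIS libraries, but 49.1% in Tumor 1 and 6.12% in Tumor 2. Macrophage-like cells gave 41.2% and 82.6% of Ccl2 in the same Tumor libraries. Ccl7 went the same way, from 90.8 to 92.7% fibroblast-like in the glands to 55.02% in Tumor 1 and 2.77% in Tumor 2, with 38.3% and 93.9% macrophage-like. Ccl8 was 94.1% and 93.9% fibroblast-like in Prepuberty, 68.2% and 85.3% in DCIS, and 9.35% and 56.1% in Tumor. Ccl11 stayed 86.4 to 96.6% fibroblast-like in all 6 libraries, and Ccl20 76.7 to 100% epithelial-like. For Ccl5 the macrophage-like share was 40.5 to 72.3% in Prepuberty and DCIS, whereas epithelial-like cells gave 73.4% in Tumor 1 and T-cell-like cells 55.9% in Tumor 2. Ccr2 UMIs were 55.2 to 100% T-cell-like before the tumour and 82.8% and 81.0% macrophage-like in the Tumor libraries. These shares rest on as few as 43 Ccl20 UMIs and 66 Ccl8 UMIs in Tumor 2, and on 10 Ccr2 UMIs in Prepuberty 1.

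**Figure D2:**
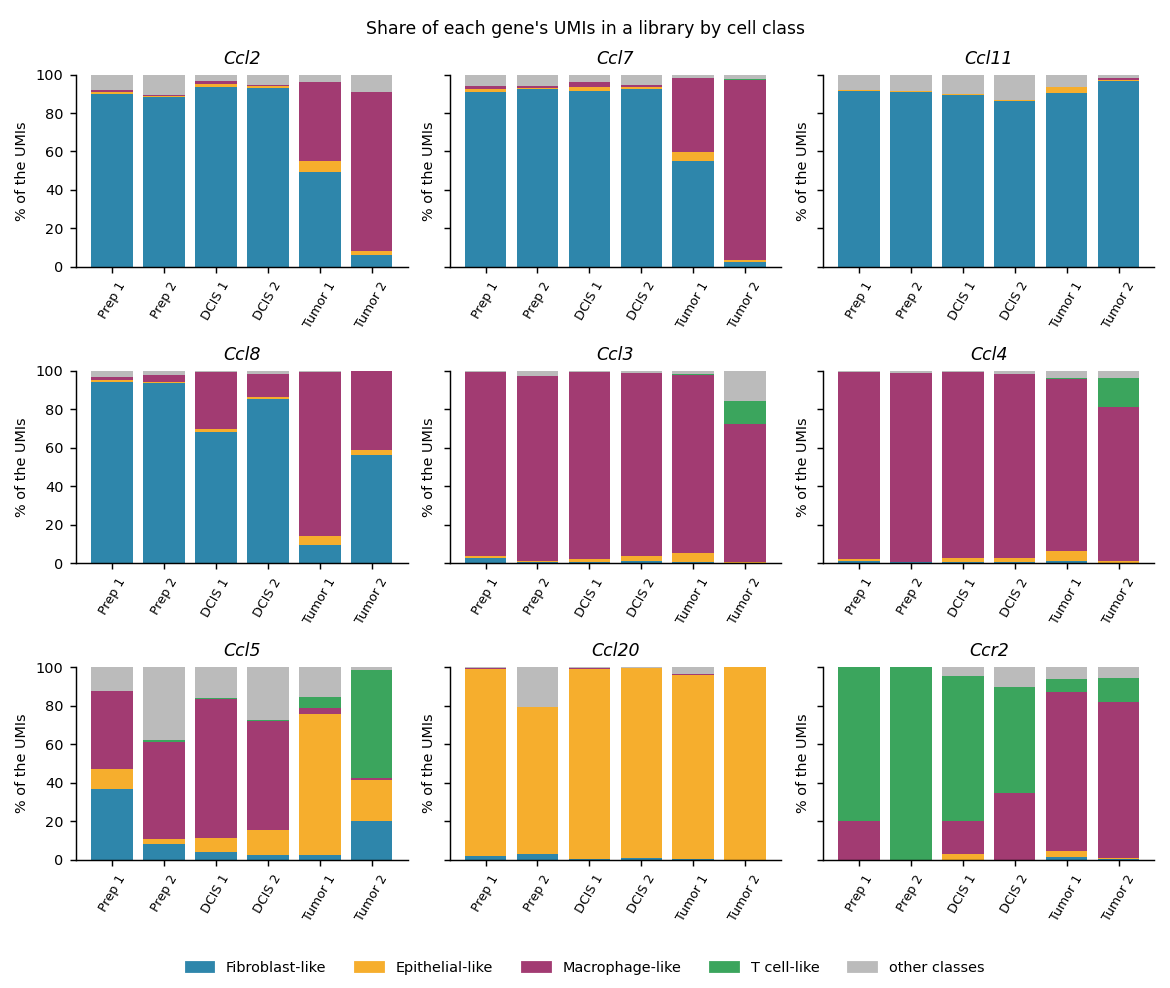
Share of a gene's UMIs (percent, vertical axis) that came from each cell class in each of the 6 libraries (stacked bars, 1 panel per gene, from 0 to 100%). In the Tumor libraries macrophage-like cells give most Ccr2 UMIs (82.8% and 81.0%), and fibroblast-like cells hold 49.1% and 6.12% of Ccl2 UMIs.

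In fibroblast-like cells the question was whether the chemokines they make differ between the 3 states. Ccl11 fell from DCIS to Tumor, whereas Ccl2, Ccl7 and Ccl8 had Tumor values below all DCIS and Prepuberty values but missed the threshold. Ccl2 was 11824 and 14533 CPM in Prepuberty, 19689.7 and 10891 CPM in DCIS, and 860.3 and 7.14 CPM in Tumor. The Prepuberty and DCIS values overlapped, and the Tumor libraries lay far below them and far from each other. The log2 difference of Tumor from DCIS was -5.14 (SE 1.67, adjusted p = 0.0778) and that of Tumor from Prepuberty -4.93 (SE 1.66, adjusted p = 0.111). Without Tumor 1 the first became -11.10 (adjusted p = 0.00446) and without Tumor 2 it became -4.21 (adjusted p = 0.0197), and DESeq2 gave -5.20 (adjusted p = 0.0267). Fibroblast-like cells with a Ccl2 UMI made up 94.9, 95.6, 91.5 and 79.3% in the 4 gland libraries and 45.97 and 4.26% in Tumor 1 and 2. After thinning each cell to 1000 UMIs these shares were 82.3, 88.5, 76.7, 61.9, 24.4 and 0.717%. T-cell-like cells, which should lack the gene, had 9.64% in Prepuberty 2, 2.0% in DCIS 1 and 0 to 0.641% in DCIS 2 and the Tumor libraries after the same thinning.

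Ccl7, the other Ccr2 ligand, was 4999 and 7082 CPM in Prepuberty, 6808 and 3159.6 CPM in DCIS, and 1024 and 3.57 CPM in Tumor. All of its Tumor values were below the rest, and the test did not separate them (log2 difference from DCIS -3.28, SE 1.70, adjusted p = 0.2205). Without Tumor 1 this was -10.48 (adjusted p = 0.00446). Ccl7 made up 22.5 to 32.8% of the Ccl2 and Ccl7 UMIs of fibroblast-like cells in the gland libraries, 54.3% in Tumor 1 and 33.3% (26 of 78 UMIs) in Tumor 2. The pair was found in the same cells: after thinning, Ccl7 was seen in 77.7% of Prepuberty 1 fibroblast-like cells with Ccl2 and in 34.3% of those without. In the other libraries from Prepuberty 2 to Tumor 1 the share was 62.7 to 89.1% with Ccl2 and 18.4 to 42.1% without.

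Ccl11, the eosinophil chemoattractant, was 1816 and 1021 CPM in Prepuberty, 2469 and 1315 CPM in DCIS, and 217 and 19.5 CPM in Tumor. The Tumor libraries did not overlap the others, and the fall from DCIS passed the test (log2 difference -4.00, SE 1.03, adjusted p = 0.0428). The call was lost without any single gland library, at -4.02 without Prepuberty 1 (adjusted p = 0.0697), -4.10 without Prepuberty 2 (0.0713), -3.51 without DCIS 1 (0.160) and -4.40 without DCIS 2 (0.132). It was also lost with only the 2 states compared (-4.08, adjusted p = 0.0692) and with clusters made without integration (-3.29, adjusted p = 0.0877). Against Prepuberty the log2 difference was -3.59 (adjusted p = 0.0676). In thinned Prepuberty 1 cells Ccl11 was seen in 47.2% of those with Ccl2 and 56.3% of those without. The other 4 libraries with enough cells went the other way, at 36.5% and 24.0% in Prepuberty 2, 54.4% and 53.4% in DCIS 1, 43.3% and 38.7% in DCIS 2 and 20% and 14.0% in Tumor 1.

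Ccl8 was 1022 and 502 CPM in Prepuberty, 822 and 507 CPM in DCIS, and 106 and 5.08 CPM in Tumor fibroblast-like cells. Its log2 difference of Tumor from DCIS was -3.59 (SE 1.16, adjusted p = 0.0759), and without Tumor 1 it was -7.06 (adjusted p = 0.00618). Ccl5 was 359 and 61.3 CPM in Prepuberty, 375 and 108 CPM in DCIS, and 92.3 and 31.0 CPM in Tumor, where only Tumor and DCIS did not overlap, and its log2 difference between them was -1.97 (SE 0.93, adjusted p = 0.184). In fibroblast-like cells 8 of the 9 genes passed the filter on low counts, all but Ccr2. Of these, 1 was lower in Tumor than in DCIS, where 5.61% of all 12147 genes tested were lower and 13.5% changed either way. None of the 8 passed between Tumor and Prepuberty (8.94% of all genes), although 3 had an unadjusted p under 0.05 and DESeq2 called 2. None passed between DCIS and Prepuberty (0% of all genes), where 0 had an unadjusted p under 0.05 and DESeq2 called 0. The median log2 difference of the 8 genes was -3.32 between Tumor and DCIS against 0.13 over all genes, and -2.68 between Tumor and Prepuberty against 0.02. Values of the 2 states did not overlap for 6 of the 8 genes between Tumor and DCIS and for 4 between Tumor and Prepuberty, where 63.7% and 53% of all genes did not.

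Marker genes of other cells moved with these differences. In fibroblast-like cells the summed level of the epithelial list was 18.4 to 92.2 CPM in the gland libraries and 594 and 172 CPM in Tumor 1 and 2, and that of the myoepithelial list 14.3 to 41.7 CPM against 1102 and 386 CPM. The T cell list was 1.97 to 9.75 CPM against 57.3 and 158 CPM, and the pericyte list 45.5 to 104 CPM against 169 and 187 CPM. Other lists were lower in both tumours, as the chemokines were: the Schwann cell list was 92.0 to 219.6 CPM in the glands against 57.0 and 58.8 CPM. The dendritic list was 3.87 to 9.02 CPM against 1.62 and 3.51 CPM, and the adipocyte list 2.39 to 14.6 CPM against 1.62 and 0.619 CPM. The fibroblast list itself was 7043 to 14727 CPM in the glands and 23714 and 10538 CPM in the tumours. Tumor 1 fibroblast-like cells without a T antigen UMI (174 cells) held Ccl2 at 1287 CPM and Ccl11 at 344 CPM, against 434 and 76.2 CPM in the 74 cells with one. In Tumor 2 the cells without it held 21.4 and 64.6 CPM, against 1.89 and 0 CPM in the cells with it. With the T antigen cells left out, Ccl11 still fell from DCIS to Tumor (log2 difference -3.42, adjusted p = 0.0454) and Ccl2 differed by -4.71 (adjusted p = 0.0845). The part of other cells in these results was otherwise not tested. Among 20 genes known to respond to tissue dissociation, Fosb was higher and Hspa1b lower in Tumor than in DCIS fibroblast-like cells, and the other 18 did not pass. Between Tumor and Prepuberty, Btg2 was higher in Tumor and the other 19 did not pass.

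Ccl2 was also compared within fibroblast-like clusters, which match between states only after integration. The class was then made of 6 clusters, of which 4 had cells in every library. These 4 are called here by leading genes from outside the CC family and given as CPM without TMM scaling. In the cluster with Mmp3 and Il1rl1, whose first leading genes are Ccl2 and Ccl7 themselves, Ccl2 was 16924 to 30714 CPM in the 4 gland libraries and 61.8 and 22.4 CPM in Tumor 1 and 2. In the cluster led by Crabp1 and Cthrc1 it was 2652 to 9998 CPM in the glands and 1133 and 5.41 CPM in the tumours. Each of these 4 clusters had both Tumor values of Ccl2 under its 4 gland values. Without integration most Tumor fibroblast-like cells formed clusters of their own. The cluster led by Sfrp2 and Cthrc1 held 166 and 28 Tumor cells and 0 gland cells, with Ccl2 at 1482 and 0 CPM, and the cluster led by H19 held 1 and 184 Tumor cells and 0 to 1 gland cells, with Ccl2 at 14.1 CPM in Tumor 2. The gland cluster with Ccl2, Ccl7 and Mmp3 then held 0 and 5 Tumor cells, and the gland cluster with Pi16 held 0 and 0. Ccl11 and Ccl8 had another distribution: Ccl8 was 747 to 1528 CPM in the Crabp1 and Cthrc1 cluster of the glands and 199 to 917 CPM in the Mmp3 and Il1rl1 cluster.

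**Figure D3:**
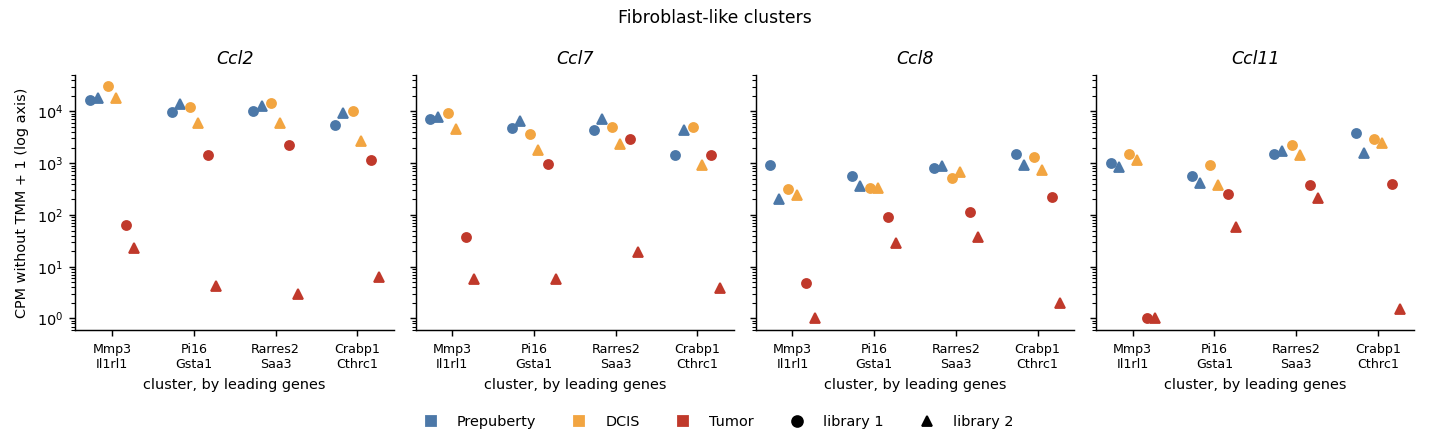
Levels of Ccl2, Ccl7, Ccl8 and Ccl11 (CPM without TMM scaling, plus 1, log axis) in the 4 fibroblast-like clusters on the horizontal axis, named by leading genes from outside the CC family; colour is the state and circle or triangle the library. The Tumor values of Ccl2 lie under the gland values in each cluster, down to 61.8 and 22.4 in the cluster with Mmp3 and Il1rl1.

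In macrophage-like cells Ccl5 fell and Ccr2 rose in Tumor against both earlier states. Ccl5 was 21371 and 12399 CPM in Prepuberty, 24894.5 and 26160.3 CPM in DCIS, and 138 and 5.42 CPM in Tumor. The gland libraries lay close together and the Tumor libraries far below them. The log2 difference of Tumor was -8.47 from DCIS (SE 1.30, adjusted p = 0.00756) and -7.88 from Prepuberty (SE 1.27, adjusted p = 0.00585), and both calls held without any single library and under every other alternative run. Cells with a Ccl5 UMI were 89.9, 74.7, 86.1 and 78.4% of macrophage-like cells in the 4 gland libraries and 18.9 and 0.532% in Tumor 1 and 2, and after thinning 71.1 to 79.5% in the glands and 7.99 and 0.617% in the tumours. Thinned fibroblast-like cells, the class where the gene was lowest, had 1.43 to 11.5%. The class was 1 cluster after integration, but without integration its cells fell mostly in different clusters by state. The cluster led by Pf4 and Ccl4 held 99, 77, 234 and 163 cells of the 4 gland libraries and 54 and 38 of Tumor 1 and 2, whereas the cluster led by C1qa and C1qc held 0 to 6 gland cells and 342 and 110 Tumor cells. Within the first, Ccl5 was 14677 to 23839 CPM without TMM scaling in the glands and 493 and 0 CPM in the tumours. Ccr2 in the same cluster was 0 to 7.42 CPM in the glands and 24.6 and 75.9 CPM in the tumours, with 99.3 and 487 CPM in the Tumor cells of the second. The macrophage marker list summed in these macrophage-like cells to 4363 to 9174 CPM in the glands and 16903 and 7702 CPM in the tumours.

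Ccr2, the receptor of Ccl2 and Ccl7, was 5.38 and 0 CPM in Prepuberty, 8.89 and 13.1 CPM in DCIS, and 85.6 and 227 CPM in Tumor macrophage-like cells. In UMIs these were 2 and 0, 11 and 10, and 212 and 502. The Tumor values lay above all others, with a log2 difference of 3.85 from DCIS (SE 0.62, adjusted p = 0.00876) and of 6.004 from Prepuberty (SE 0.87, adjusted p = 0.00339). Since Prepuberty had 2 UMIs in all, its level relative to Tumor is better given by counting, at 0.0151 (exact 95% interval 0.00183 to 0.0548, counting error only). The call against DCIS was lost without DCIS 1 (3.53, adjusted p = 0.161) or DCIS 2 (4.08, adjusted p = 0.0739), and that against Prepuberty in no alternative. Macrophage-like cells with a Ccr2 UMI were 0 to 3.28% in the glands and 26.2 and 37.2% in Tumor 1 and 2, and after thinning 0 to 1.14% against 12.1 and 25.9%, with at most 0.407% of fibroblast-like cells. The dendritic cell list summed to 24.9 to 44.1 CPM in the glands and to 159 and 155 CPM in the tumours, and the neutrophil list to 51.0 to 386 CPM and to 937 and 4953 CPM, with no marker of either list at 0 in every library. When the cells were clustered without integration, 62 and 45 of the class in Tumor 1 and 2 fell in a cluster with neutrophil markers, and none of these had a Ccr2 or Ccl5 UMI. Without these cells, an alternative chosen after seeing the data, the log2 difference of Ccr2 was 3.88 and that of Ccl5 -8.45 between Tumor and DCIS.

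Ccl3 and Ccl4, the macrophage inflammatory proteins, differed widely between the libraries of a state. Ccl4 was 22068 and 4822 CPM in Prepuberty, 5378 and 1977 CPM in DCIS, and 932 and 115 CPM in Tumor. It fell from Prepuberty to Tumor (log2 difference -4.68, SE 1.05, adjusted p = 0.0281), a call that was lost without Prepuberty 1 (-3.20, adjusted p = 0.133), and its difference from DCIS was -2.81 (adjusted p = 0.0998). Ccl3 was 7384 and 1514 CPM in Prepuberty, 2441 and 843 CPM in DCIS, and 729.6 and 56.9 CPM in Tumor. All Tumor values of Ccl3 were below the others, but neither contrast passed (log2 difference from Prepuberty -3.50, SE 1.08, adjusted p = 0.0850; from DCIS -2.06, adjusted p = 0.229). The cells of the neutrophil cluster held much of both genes in the tumours: in Tumor 1, Ccl3 was 16635 CPM in them against 335 CPM in the rest of the class, and Ccl4 8622 against 793 CPM. In Tumor 2 the same pairs were 1567 against 37.6 CPM and 3426 against 67.9 CPM. With these cells left out, Ccl3 fell from Prepuberty to Tumor (-4.73, adjusted p = 0.0368). With all cells kept, its difference passed without Tumor 1 (-6.32, adjusted p = 0.00520) and did not pass without Tumor 2, where the 1 Tumor library left is assumed to vary like the other groups. Cells with both genes were common: after thinning, Ccl4 was seen in 97.9% of Prepuberty 1 macrophage-like cells with Ccl3 and in 37.5% of those without, and in Tumor 1 in 59.2% and 20.2%.

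Macrophage-like cells also carried the monocyte chemoattractants Ccl2 and Ccl7. Their Ccl2 was 5911 and 3461 CPM in Prepuberty, 1266 and 500.2 CPM in DCIS, and 1019 and 317 CPM in Tumor. DCIS and Tumor overlapped, and Tumor was lower than Prepuberty (log2 difference -2.81, SE 0.65, adjusted p = 0.0319). Ccl7 was 4404 and 2269 CPM in Prepuberty, 662 and 372 CPM in DCIS, and 1005 and 398 CPM in Tumor, with a difference of Tumor from Prepuberty of -2.25 (SE 0.56, adjusted p = 0.0416). Without Prepuberty 1 both calls were lost, at -2.38 for Ccl2 (adjusted p = 0.143) and -1.70 for Ccl7 (adjusted p = 0.221), as they were without Prepuberty 2 (-3.13 and -2.63) or Tumor 2 (-2.18 and -1.71), and that of Ccl7 also without DCIS 1 (-2.26) or DCIS 2 (-2.26). The DCIS values of both genes were under the Prepuberty values, with log2 differences of -2.41 for Ccl2 (SE 0.64, adjusted p = 0.221) and -2.69 for Ccl7 (SE 0.57, adjusted p = 0.140) that did not pass. Ccl8 showed no such pattern, at 891, 658, 1237 and 716 CPM in the glands and 1363 and 12.2 CPM in Tumor 1 and 2. The Tumor 1 value came from few cells: 17.7% of macrophage-like cells had a Ccl8 UMI, the highest 10% of the class held 98.7% of the UMIs, and 1 cell held 523 UMIs. Ccl11, whose UMIs were mostly fibroblast-like, was called lower in Tumor against DCIS (-4.03, SE 0.96, adjusted p = 0.0374) and against Prepuberty (-4.43, adjusted p = 0.0335). These calls rest on only 3 Tumor UMIs against 23 and 13, which is a counting ratio of 18.0 (exact 95% interval 5.43 to 93.5) for DCIS to Tumor. In macrophage-like cells the fibroblast list summed to 64.9 to 230 CPM in the glands and 62.7 and 35.9 CPM in Tumor 1 and 2. The endothelial list was 26.0 to 50.0 CPM against 19.3 and 5.22 CPM. The epithelial list went the other way in Tumor 1, at 31.3 to 148 CPM against 264 and 120 CPM. Macrophage-like Ccl11 cannot be told apart from RNA of other cells at these levels, and is not read as expression. The Ccl11 calls were lost without DCIS 1 (adjusted p = 0.193 and 0.0772), DCIS 2 (0.228 and 0.0555), Tumor 1 (0.0541 and 0.0516) or Tumor 2 (0.124 and 0.110), and that against Prepuberty also without Prepuberty 1 (0.446).

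In macrophage-like cells 8 of the 9 genes passed the filter, all but Ccl20. Between Tumor and Prepuberty 6 passed the test (Ccl2, Ccl4, Ccl5, Ccl7 and Ccl11 lower, Ccr2 higher), where 5.84% of all 7838 genes did (3.94% lower and 1.9% higher). Between Tumor and DCIS 3 passed (Ccl5 and Ccl11 lower, Ccr2 higher), where 6.42% of all genes did (3.98% lower and 2.44% higher). Both counts include Ccl11, which is not read as expression in these cells. Leaving out 1 library at a time gave 2 to 7 calls against Prepuberty, with 2 without Prepuberty 1 and 3 without Tumor 2, and 1 to 5 calls against DCIS, with 1 without DCIS 1 or DCIS 2 and 5 without Tumor 1. Between DCIS and Prepuberty none passed (0.128% of all genes), while 2 had an unadjusted p under 0.05 and DESeq2 called 2. Values did not overlap for 5 of 8 genes between Tumor and DCIS and for 7 of 8 between Tumor and Prepuberty, against 58.9% and 49.3% of all genes. Of the dissociation genes, Fosb and Fos were higher in Tumor than in DCIS and Btg2, Fosb and Fos higher than in Prepuberty, and no other of the 20 passed.

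**Figure D4:**
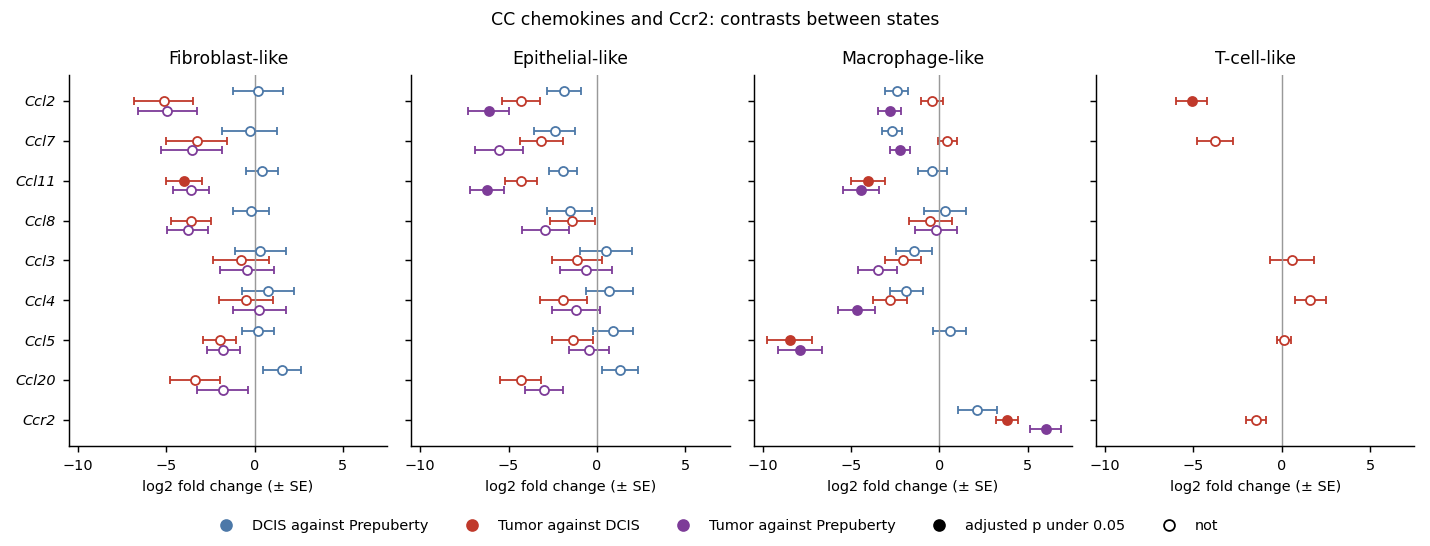
Log2 fold change of each gene (vertical axis, with SE bars) in each class for DCIS against Prepuberty, Tumor against DCIS and Tumor against Prepuberty; filled points have an adjusted p under 0.05. Macrophage-like Ccr2 stands above 0 at 3.85 and 6.004 and Ccl5 far below it at -8.47 and -7.88.

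In epithelial-like cells the chemokine of the class was Ccl20, the ligand of Ccr6. Ccl20 was 113 and 31.8 CPM in Prepuberty, 164 and 201 CPM in DCIS, and 17.0 and 1.22 CPM in Tumor. The DCIS libraries were the highest and the Tumor libraries the lowest, with no overlap between states. In the same cells the myoepithelial list summed to 227 to 1053 CPM in the glands and 1460 and 2562 CPM in Tumor 1 and 2, and the epithelial list to 9025 to 14539 CPM against 8569 and 5687 CPM, and their part in the result was not tested. The log2 difference of Tumor from DCIS was -4.32 (SE 1.15) and did not pass (adjusted p = 0.0891), nor did that of DCIS from Prepuberty (1.32, SE 1.02, adjusted p = 0.602) or of Tumor from Prepuberty (-3.00, adjusted p = 0.127). Without Tumor 1 the difference from DCIS was -7.22 (adjusted p = 0.0265), without Tumor 2 it was -3.46 (adjusted p = 0.0478), and DESeq2 gave -4.34 (adjusted p = 0.0207). Epithelial-like cells with a Ccl20 UMI were 17.1, 12.5, 19.96 and 21.8% in the glands and 9.21 and 1.27% in Tumor 1 and 2, while no T-cell-like cell had one in any library. After thinning they were 6.10, 1.30, 7.05 and 6.09% in the glands and 1.44 and 0.0749% in the tumours, with at most 0.398% of fibroblast-like cells. Within a library the gene was concentrated, with 92.1 to 100% of its UMIs in the highest 10% of cells. In the cluster led by Ankrd1, of which Ccl20 is itself the next leading gene, it was 200.2 and 30.9 CPM in Prepuberty, 275 and 349 CPM in DCIS and 51.9 and 4.34 CPM in Tumor, without TMM scaling. The highest value of any epithelial-like cluster was 1359.8 CPM, in 17 cells of Prepuberty 1. Clustered without integration, epithelial-like cells also fell mostly in different clusters by state. Those led by Gpx2 and by Pthlh held 1739 and 1593 Tumor 1 cells and 0 to 11 cells of each gland library. The one led by Hist1h1b held 848 Tumor 2 cells and 0 to 6. The one led by Ankrd1 and Cgn held 70, 9, 1122 and 419 gland cells and 18 and 243 Tumor cells. Ccl20 was not compared within these clusters.

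Ccl5 in epithelial-like cells was 168 and 124 CPM in Prepuberty, 206 and 346 CPM in DCIS, and 206 and 7.003 CPM in Tumor. The states overlapped, and the log2 difference of Tumor from DCIS was -1.37 (SE 1.14, adjusted p = 0.493). Without Tumor 1 it was -5.30 (adjusted p = 0.0184). The highest 10% of epithelial-like cells held 86.9 to 100% of Ccl5 UMIs, and a single Tumor 1 cell held 568.

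Ccl2 and Ccl11 fell in epithelial-like cells between Prepuberty and Tumor (log2 differences -6.12, SE 1.17, adjusted p = 0.0364, and -6.21, SE 0.96, adjusted p = 0.0289). Ccl2 was 237 and 346 CPM in Prepuberty, 104 and 57.9 CPM in DCIS, and 7.81 and 0.484 CPM in Tumor, and Ccl11 was 24.97 CPM or less in every library. The gene was also seen in cells that should lack it. T-cell-like cells had Ccl2 at 291.5 CPM in Prepuberty 2, 68.2 and 195.5 in DCIS and 5.64 and 0 in Tumor. Ccl7 made up 36.7, 36.0, 29.4 and 25.3% of epithelial-like Ccl2 and Ccl7 UMIs in the 4 gland libraries, against the 29.7, 32.8, 25.7 and 22.5% of fibroblast-like cells in the same libraries. Epithelial-like Ccl2 and Ccl11 cannot be told apart from RNA of other cells at these levels, and are not read as expression. Both calls were lost without Prepuberty 1 (Ccl2 -6.36, adjusted p = 0.115; Ccl11 -6.44, adjusted p = 0.0938) or Prepuberty 2 (Ccl2 -5.89, adjusted p = 0.126; Ccl11 -6.04, adjusted p = 0.106), and that of Ccl2 also without DCIS 1 (adjusted p = 0.0545) or DCIS 2 (adjusted p = 0.0570).

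Of the 9 genes, 8 passed the filter in epithelial-like cells, all but Ccr2, and 2 were lower in Tumor than in Prepuberty, where 3.17% of all 13383 genes were lower and 5.81% changed either way. None passed between Tumor and DCIS (1.13% of all genes), where 4 had an unadjusted p under 0.05 and DESeq2 called 3. None passed between DCIS and Prepuberty (0% of all genes), where 1 had an unadjusted p under 0.05 and DESeq2 called 0. Values did not overlap for 6 of 8 genes between Tumor and DCIS and for 5 of 8 between Tumor and Prepuberty, against 57.1% and 55.5% of all genes. Of the dissociation genes only Hspa1b passed, lower in Tumor than in DCIS.

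T-cell-like cells carried Ccl5, which cytotoxic and memory T cells secrete, and Ccr2. Ccl5 was 374 CPM in Prepuberty 2, 2329 and 1564 CPM in DCIS, and 2207 and 2028 CPM in Tumor. DCIS and Tumor overlapped, with a log2 difference of 0.12 (SE 0.40, 95% interval -0.66 to 0.89, adjusted p = 0.943). The natural killer cell list summed to 155 CPM in Prepuberty 2, 342 and 308 CPM in DCIS and 228 and 1379 CPM in Tumor. Ccr2 was 144 CPM in Prepuberty 2, 477 and 313 CPM in DCIS, and 47.9 and 249 CPM in Tumor. Its Tumor values were both under the DCIS values, without passing (log2 difference -1.45, SE 0.58, adjusted p = 0.325), and without Tumor 2 the difference was -3.08 (adjusted p = 0.00212). Cells with a Ccr2 UMI were 16.7% in Prepuberty 2, 37.5 and 23.3% in DCIS and 7.95 and 29.5% in Tumor. These values rest on 30 to 176 cells and 16 to 78 Ccr2 UMIs per library.

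Of the 9 genes 6 passed the filter in T-cell-like cells, and Ccl2 alone was called, lower in Tumor than in DCIS (log2 difference -5.08, SE 0.88, adjusted p = 0.00704), where 0.513% of all 4291 genes passed and 0.326% were lower. That call rests on 2 UMIs in Tumor against 17 in DCIS, a counting ratio of 36.9 (exact 95% interval 8.77 to 329.7), in cells that should lack the gene, and was lost without Prepuberty 2 (-5.10, adjusted p = 0.155) or Tumor 1 (-7.32, adjusted p = 0.365). Values did not overlap for 2 of the 6 genes, against 44.3% of all genes. Ccl4 was 0 in Prepuberty 2, 48.7 and 0 CPM in DCIS and 39.5 and 153 CPM in Tumor, with a log2 difference of 1.61 (SE 0.86, adjusted p = 0.501).

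Whether a gene changed unlike in 2 classes was tested in 1 model over the fibroblast-like, epithelial-like and macrophage-like sums of the same libraries, in which all 9 genes and 13738 genes in all were tested. The change of Ccl2 from DCIS to Tumor was more negative in fibroblast-like than in macrophage-like cells (difference of log2 changes -6.94, SE 1.19, adjusted p = 0.0106), as was that of Ccl7 (-6.64, SE 1.55, adjusted p = 0.0314). Ccl5 went the other way, with the more negative change in macrophage-like cells (7.76, SE 1.19, adjusted p = 0.00769). These were 3 of 9 genes, where 4.29% of all genes passed. All 3 calls were lost without DCIS 1 (Ccl2 -7.19, Ccl7 -6.53, Ccl5 8.94) or DCIS 2 (-6.68, -6.79 and 7.10). Between Prepuberty and Tumor 4 of 9 differed between the same classes (3.17% of all genes), Ccl8 with the more negative change in fibroblast-like cells and Ccl3, Ccl4 and Ccl5 in macrophage-like cells. Each of the 4 was lost without some library: Ccl3 turned to -1.09 without Tumor 1 and missed the threshold without any gland library (2.49 to 3.53), Ccl4 was lost without Prepuberty 1 (4.58), Prepuberty 2 (4.15) or Tumor 1 (2.22), Ccl5 without Prepuberty 2 (6.68), and Ccl8 without any library but Tumor 2 (-1.30 to -3.17). Between epithelial-like and macrophage-like cells 2 of 9 differed from DCIS to Tumor (2.71% of all genes) and 3 of 9 from Prepuberty to Tumor (4.22%), and between fibroblast-like and epithelial-like cells 0 (7.62%) and 1 (9.45%). From Prepuberty to DCIS none of the 9 differed for any pair of classes (0.0873, 0.00728 and 0.182% of all genes). At an unadjusted p under 0.05 there were 1 to 3 per pair.

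The other CC chemokines and receptors comprised 26 genes, of which 10 passed the filter in fibroblast-like, 9 in epithelial-like, 10 in macrophage-like and 3 in T-cell-like cells. Calls were made in macrophage-like cells only, though differences between classes were not tested for these genes. Ccl22, which attracts regulatory T cells through Ccr4, was 83.4, 98.4, 42.8 and 69.6 CPM in the 4 gland libraries and 5.25 and 0.904 CPM in Tumor 1 and 2, and fell from DCIS (-4.10, SE 0.60, adjusted p = 0.00669) and from Prepuberty (-4.81, SE 0.61, adjusted p = 0.00200). Ccl9 (-1.53, SE 0.38, adjusted p = 0.0421) and Ccr7, the receptor that guides dendritic cells to lymph nodes (-3.85, SE 1.00, adjusted p = 0.0461), were lower in Tumor than in DCIS. Against Prepuberty, Ccl12 (-2.34, adjusted p = 0.0260), a further Ccr2 ligand in the mouse, and Ccl24 (-4.82, adjusted p = 0.0272), a ligand of Ccr3, were lower, and Ccr1, a receptor of Ccl3 and Ccl5, was higher (1.60, SE 0.36, adjusted p = 0.0289). Ccr1 was 56.5 and 58.2 CPM in Prepuberty, 109 and 102 CPM in DCIS and 203 and 146 CPM in Tumor.

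The genes most like each member over 23 sums of class and library, by Pearson's r of log2 CPM among 10302 genes, are given without a test, since the sums share libraries and classes. Ccl2 was closest to Ccl7 (r = 0.919), Saa3 (0.890) and Hmox1 (0.868). Ccl3 was closest to Lilr4b (0.961) and Ccl4 (0.957), and Ccl4 to Cd86 (0.963). Ccl7 was close to Ccl8 (0.904) as well as Ccl2. Ccl11 was closest to Ramp2 (0.95) and Dpep1 (0.946), Ccl20 to Bex4 (0.945) and Ccr2 to Gpr183 and Arhgap15 (both 0.955). Ccl5 had the lowest r with its closest gene, Rnaset2a (0.873). None of the 3 closest genes was a CC chemokine or receptor for Ccl5, Ccl8, Ccl11, Ccl20 or Ccr2.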

How the data were processed

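Droplet libraries of 6 samples were deposited as 10x matrices of UMI counts per gene and cell, which the authors made against mm10; the submitters' processing notes name Cell Ranger, STAR, SAMtools, Picard and Salmon. The deposited counts were not normalized and summed to 30041293 to 61479653 UMIs per library. Of 23835 barcodes, 546 with under 200 genes, 1045 with over 10% mitochondrial UMIs and 707 with the highest Scrublet scores (scanpy 1.11.5; the automatic threshold marked 31 in all) were left out. Cells were integrated over libraries and clustered in Seurat 5.3.0 at resolution 0.8 without CC family genes among the 2000 variable genes, and clusters were named from marker lists (fibroblast-like clusters had 3 to 10 of 10 markers, epithelial-like 5 to 10 of 11, macrophage-like 9 of 10, T-cell-like 9 of 10). UMIs were summed per library and class with at least 10 cells and tested with the quasi-likelihood test of edgeR 4.0.16 (R 4.3.3, limma 3.58.1; TMM, filterByExpr, all 3 states in 1 fit per class), with Benjamini-Hochberg adjustment over all genes tested and a threshold of 0.05, two-sided. Differences between classes were tested as interaction terms with the library as a block. Shares of cells were also computed after thinning to 1000 UMIs, leaving out 1 to 106 shallower cells per class and library; intervals are exact and cover counting error only, as do limits from counts of 0 (3 counts). The tests were run on simulated counts first. The alternatives were DESeq2 1.42.0, no filter, the replicate number as a block, only the 2 states compared, each library left out, thinned counts, other cell filters and other clusterings. Where a library was left out, the 1 left in its state is assumed to vary like the other states. Other genes were named where they passed a test or, within the CC family, reached 50 CPM in a class, and the 3 most similar genes of each member were listed. 1 gene of the CC family list is not reported here. The members and lists were chosen with earlier results of these data known.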

Additional observations from a re-analysis of the deposited data

Results flagged for a closer look

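For 13 comparisons of 2 cell classes the change between states differed by the interaction test, which is what brought them here. Each value is the change in the first class minus that in the second (log2), so a positive value has the more negative change in the second. Fibroblast-like minus macrophage-like cells, from DCIS to Tumor, gave -6.94 for Ccl2 (adjusted p = 0.0106), -6.64 for Ccl7 (adjusted p = 0.0314) and 7.76 for Ccl5 (adjusted p = 0.00769). From Prepuberty to Tumor the same pair gave -2.77 for Ccl8 (adjusted p = 0.0395), 7.51 for Ccl5 (adjusted p = 0.0107), 2.82 for Ccl3 (adjusted p = 0.0464) and 4.26 for Ccl4 (adjusted p = 0.0161). Epithelial-like minus macrophage-like cells gave -5.25 for Ccl2 (adjusted p = 0.0349) and 6.84 for Ccl5 (adjusted p = 0.0141) from DCIS to Tumor, and -4.77 for Ccl2 (adjusted p = 0.0365), 6.98 for Ccl5 (adjusted p = 0.00813) and 2.61 for Ccl3 (adjusted p = 0.0434) from Prepuberty to Tumor. Fibroblast-like minus epithelial-like cells gave 2.68 for Ccl11 (adjusted p = 0.0360) from Prepuberty to Tumor. Each of the 13 missed the threshold without at least 1 library. The calls between DCIS and Tumor were lost without DCIS 1 or DCIS 2 (adjusted p = 0.0527 to 0.331). Those between Prepuberty and Tumor were lost for Ccl5 without Prepuberty 2 (6.68, fibroblast-like) or Prepuberty 1 (7.01, epithelial-like), for Ccl4 without Prepuberty 1 (4.58), Prepuberty 2 (4.15) or Tumor 1 (2.22), for Ccl8 without any library but Tumor 2 (-1.30 without Tumor 1), for Ccl3 without any library but Tumor 2 (-1.09 and 1.23 without Tumor 1), for epithelial-like Ccl2 without any Prepuberty (-5.27 and -4.15) or DCIS library (-4.79 and -4.80), and for Ccl11 without Prepuberty 2 (1.98), DCIS 1 (2.68), DCIS 2 (2.68) or Tumor 1 (2.77). Ccl2 and Ccl11 in epithelial-like cells, and Ccl3 and Ccl4 in epithelial-like and fibroblast-like cells, were near the level of classes that should lack them.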

How the results depend on the processing

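Of 660 alternative values of 44 single fold changes, 512 kept their direction and side of the threshold, 86 lost and 58 gained a call, and 4 turned. The turned ones were Ccl5 of T-cell-like cells between Tumor and DCIS (0.12), at -0.16 to 0.47 with 1 library left out (-0.16 without DCIS 2), -0.20 on thinned counts and -0.014 with under 5% mitochondrial UMIs, and Ccl3 of fibroblast-like minus macrophage-like cells between Tumor and Prepuberty (2.82), at -1.09 to 3.53 with 1 left out (-1.09 without Tumor 1). The causes were not tested. Counts of members called were, for fibroblast-like Tumor against DCIS (1), 2 with DESeq2, 5 with no filter, 4 with the replicate block, and 0 with the 2 states only or with no integration; for Tumor against Prepuberty (0) 2, 5 and 4 with the first 3. For epithelial-like cells, DCIS against Prepuberty (0) had 4 with no filter; Tumor against DCIS (0) 3 with DESeq2, 6 with no filter, 1 thinned and 1 with no integration; Tumor against Prepuberty (2) 5 with no filter and 1 with the 2 states only. For macrophage-like cells, DCIS against Prepuberty (0) had 2 with DESeq2, 3 with no filter, 2 with the block and 1 with the 2 states; Tumor against DCIS (3) 5 with no filter and 5 with the block. For T-cell-like cells (1) the block gave 3, the 2 states, thinning or under 5% mitochondrial UMIs 0, and a doubled doublet share 2. For differences between classes, no filter gave 3, 3 and 3 for fibroblast-like minus epithelial-like (0, 0 and 1 in the order DCIS against Prepuberty, Tumor against DCIS, Tumor against Prepuberty), 4 and 5 for fibroblast-like minus macrophage-like (first and second contrast, 0 and 3), and 3 and 6 for epithelial-like minus macrophage-like (first and last, 0 and 3); thinning, resolution 1.2 or leaving out T antigen cells gave 0 for the 1, and no integration 1 for the 2 of epithelial-like minus macrophage-like from DCIS to Tumor. Thinning moved the share of cells with Ccl3 among macrophage-like cells from 55.1 to 30.8% and with Ccl20 among epithelial-like cells from 14.8 to 3.76%. Leaving out 1 library gave, in the same order of contrasts, 0 to 0, 0 to 4 and 0 to 4 calls in fibroblast-like, 0 to 0, 0 to 7 and 0 to 7 in epithelial-like, 0 to 1, 1 to 5 and 2 to 7 in macrophage-like and 0 to 2 in T-cell-like cells, and 0 to 3, 0 to 2 and 0 to 2, 0 to 3, 0 to 5 and 0 to 5, and 0 to 3, 0 to 3 and 0 to 6 for the 3 pairs of classes. The replicate numbers were not taken as a pairing, since the labels tie nothing to them and there are 2: same-numbered libraries deviated together with r of 0.11 to 0.32 in fibroblast-like, -0.08 to 0.06 in epithelial-like, 0.02 to 0.13 in macrophage-like and 0.01 in T-cell-like cells. With the block, fibroblast-like Ccl2 (-6.02, adjusted p = 0.0335), Ccl8 (-4.40, 0.0135), Ccl11 and Ccl5 passed between Tumor and DCIS, and the same 4 between Tumor and Prepuberty. Over all genes, the block moved the calls of Tumor against DCIS from 1639 to 2319 in fibroblast-like, 151 to 0 in epithelial-like, 503 to 645 in macrophage-like and 22 to 116 in T-cell-like cells, and DESeq2 called 2643, 1577, 443 and 19. Leaving out the cells of the neutrophil cluster was added after the data were seen. Depth limited Ccr2 outside T-cell-like and Tumor macrophage-like cells and Ccl20 outside epithelial-like cells.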

Other observations

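Cells outside the 4 classes held some of these chemokines at high levels, given as CPM without TMM scaling and as medians over libraries. Pericyte-like cells had Ccl2 at 3625 CPM, between fibroblast-like (9884 CPM) and macrophage-like cells (1062 CPM), and Ccl11 at 1798 CPM (502 to 4039), with fibroblast-like cells at 1036 CPM. Endothelial-like cells had Ccl2 at 792 CPM and Schwann-like cells at 124 CPM. Ccl7 made up 9.14 to 18.8% of the Ccl2 and Ccl7 UMIs of endothelial-like cells in the gland libraries, lower in each library than in its fibroblast-like or macrophage-like cells. The B-cell-like cluster, led by Igkc, Ccl22, Ighm and Cd79a with Ccr7 among its leading genes, had Ccl5 at 20047 CPM (1375 to 52228), with macrophage-like cells at 15156 CPM. At resolution 1.2 a dendritic cluster of 122 cells, led by Ccl22, and a B cell cluster of 117 cells, led by Igkc, stood in its place. In DCIS 1 and 2 the dendritic cluster held 29 and 28 cells and the B cell cluster 2 and 2. Ccl5 was not measured in each of them, so its level is not assigned to B cells.

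Macrophage-like cells with a C1q UMI and no UMI of the dendritic cell, Ccl22, Ccr7 or neutrophil markers, a subset chosen after the data were seen, held Ccl5 at 8723 and 21832 CPM in Prepuberty, 14529 and 21736 CPM in DCIS and 215 and 0 CPM in Tumor. Ccr2 in the same cells was 0 and 0 CPM in Prepuberty, 5.86 and 16.1 CPM in DCIS and 62.8 and 164 CPM in Tumor. This subset had 19 to 129 cells per library.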
